A study of Bos taurus with 12 samples.

Results

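The genes of the bovine major histocompatibility complex (MHC) were taken as all rows of the deposited tables whose gene symbol begins with BOLA-. These were 102 of 196275 listed CpG sites, assigned to 11 of 11830 genes with a symbol, and 0 of 1227 listed windows of 500 bases. Each site is a single CpG cytosine on one DNA strand, and its value is the percent of reads that kept the cytosine in each cow. Blood was drawn from dairy cows kept alike on one farm, at a time when no mastitis complication was known. The Mastitis Susceptible Group (MSG) held 6 cows that were culled within 1 year for such complications, and the Mastitis Resilient Group (MRG) held 6 cows of similar ages that were still in the herd. No agent was given, and "susceptible" and "resilient" stand only for leaving or staying. Breed and blood cell counts were not given in the labels. All values come from whole blood, so differences in the mix of white blood cells between cows and differences within a cell type cannot be told apart.

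MHC molecules carry peptides to the cell surface, where T cells inspect them. Class I molecules show peptides made inside almost any cell, and class II molecules, made of an alpha and a beta chain, show peptides taken up by B cells, macrophages and dendritic cells. In cattle the class II genes lie in 2 separate stretches of chromosome 23. Class IIa holds the classical DR and DQ genes, and class IIb holds the DY genes of ruminants and the DM and DO genes, whose products control the loading of peptides. The symbols fell into 3 stretches of the genome build ARS-UCD1.2. Class IIb sites lay at 7.07 to 7.33 Mb (62 sites of 6 genes), class IIa sites at 25.5 to 25.8 Mb (25 sites of 4 genes) and class I sites at 28.6 Mb (15 sites of BOLA-NC1). The annotation table of a later assembly, ARS-UCD2.0, held 14 such symbols, of which 3, all of the DQ type, had no listed site.

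The listed sites of the MHC genes were mostly lower in the cows that were later culled. Of the 102 sites, 80 were lower in MSG and 22 higher, a share lower of 78.4% beside 47.3% over all listed sites. By stretch, in class IIb 57 of 62 sites were lower in MSG, in class I 12 of 15, and in class IIa 11 of 25. The authors had listed each site for a difference on these same cows of at least 25 percentage points by their own calculation, so the sizes and p-values below describe a selected set. No test of the share is given, because neighbouring sites share cows and can share reads. Runs of sites closer than 1 kb numbered 48, of which 14 were higher in MSG.

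No single site passed either adjusted test between cows used here, although each had a low q-value in the authors' own test. In limma's test over all listed sites 0 of the 102 had an adjusted p under 0.05, as did 0% of all listed sites, and the adjusted p ran from 0.0802 to 0.231. The exact permutation test, adjusted over all listed sites, also called 0 of the 102 (lowest adjusted p 0.121). An unadjusted p under 0.05 was reached by 47 of the 102 sites in limma's test, beside 51.9% of all listed sites, and by 23 in the exact permutation test, beside 35%. Both shares lay below those of the whole table. The cows of the groups did not overlap at 2 of the 102 sites, beside 2.36% of all listed sites. The median absolute difference was 32.8 points, and the median spread between cows of a group was 30.7 points (27.7 over all listed sites).

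**Figure D1:**
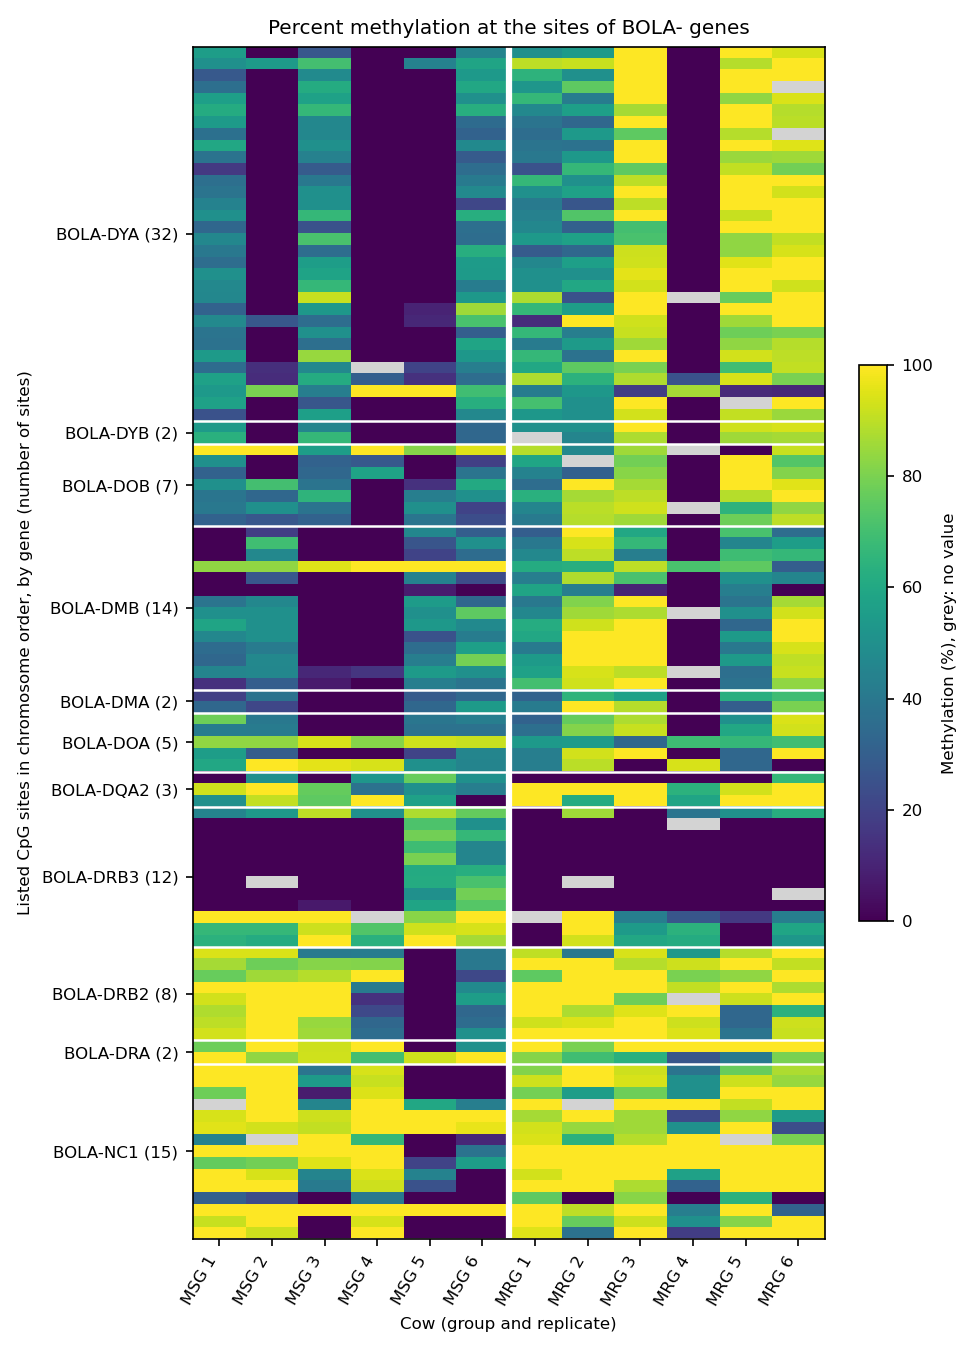
Percent methylation (color, 0 to 100%) at the 102 listed CpG sites of BOLA- genes (rows, in chromosome order, with the number of sites of each gene) in 6 MSG and 6 MRG cows (columns). Values of a cow keep one level over long runs of sites, such as 0 in MSG replicates 2, 4 and 5 and MRG replicate 4 along BOLA-DYA, and grey cells have no value.

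BOLA-DYA encodes the alpha chain of the DY class II molecule. It held the most sites, 32, of which 31 were lower in MSG. The gene lies at chromosome 23, 7072118 to 7078464, on the plus strand, and its sites ran from 32 bases before the start (0.032 kb) to 16.2 kb beyond it. Of the 32 sites 11 lay inside the gene, and 20 were distal intergenic, beyond its end. Averaged over the 32 sites, MSG cows had a lowest value of 4.19%, a median of 24.97% and a highest of 51.6%. MRG cows had a lowest value of 3.60%, a median of 71.5% and a highest of 90.8%. The ranges overlapped through MRG replicate 4, the lowest cow of all. MSG cows averaged 26.8% ± 23.5 and MRG cows 63.3% ± 34.4 (SD, n = 6 each), a difference of -36.5 points (SE 15.4). In limma's test on gene means its p was 0.0337 and its adjusted p 0.121, and the exact permutation p was 0.0519.

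The cows took up 3 levels along most of BOLA-DYA. MSG replicates 2, 4 and 5 and MRG replicate 4 were together at exactly 0 at 25 of the 32 sites. MSG replicates 1, 3 and 6 and MRG replicates 1 and 2 were between 25% and 75% at 31, 30, 30, 28 and 30 of their 32 sites. MRG replicates 3, 5 and 6 were at 80% or more at 27 of 32, 27 of 31 and 28 of 30 sites. No MSG cow was at 80% or more at more than 2 of its sites.

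At 7072086, in the promoter, MSG cows averaged 21.3% ± 25 and MRG cows 66.4% ± 39.6 (SD, n = 6 each). In MSG the cows stood at 55.6%, 0%, 27.3%, 0%, 0% and 45% in the order of replicates, and in MRG at 50%, 54.5%, 100%, 0%, 100% and 94.1%. Further sites annotated to the promoter were at 7072654 (46.2% against 78.4%) and 7074811 (21.6% against 69.1%, the first value being that of MSG). By position they lie inside the gene, 0.536 kb and 2.69 kb after its start. At 7072654 MSG replicate 4 and MRG replicate 4 alone were at 0, and MSG replicates 2 and 5 stood at 54.5% and 44.4%. The intronic site at 7075736 and the exonic CpG at 7075965 and 7075966 were 31.3 to 39.2 points lower in MSG. Of the 6 sites annotated to the 3' untranslated region (7076436, 7076437, 7076465, 7076466, 7076650 and 7078175), the last had the widest difference of the gene, 19.6% ± 21.5 against 67.8% ± 38.7 (SD, n = 6 each). Its limma p was 0.00435 (adjusted p = 0.0802), and its exact permutation p was 0.0303.

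The single BOLA-DYA site that was higher in MSG, at 7087639, showed the cows in nearly the opposite order. In MSG it stood at 53.8%, 80%, 42.9%, 100%, 100% and 69.2% in the order of replicates, and in MRG at 42.1%, 52.9%, 18.2%, 86.7%, 11.8% and 11.1%. The 4 cows at 0 at most other sites of the gene were the 4 highest here, and the 3 highest elsewhere were the 3 lowest here. MSG cows averaged 74.3% ± 23.6 and MRG cows 37.1% ± 29.7 (SD, n = 6 each), with an exact permutation p of 0.0433 and a limma adjusted p of 0.0864. The site at 7086134 was the only lower site of the gene with no cow at 0. It stood at 35.2% ± 20.8 against 73.1% ± 25.7 (SD, n = 6 each). Over these 2 sites alone the difference of the gene was -0.369 points.

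**Figure D2:**
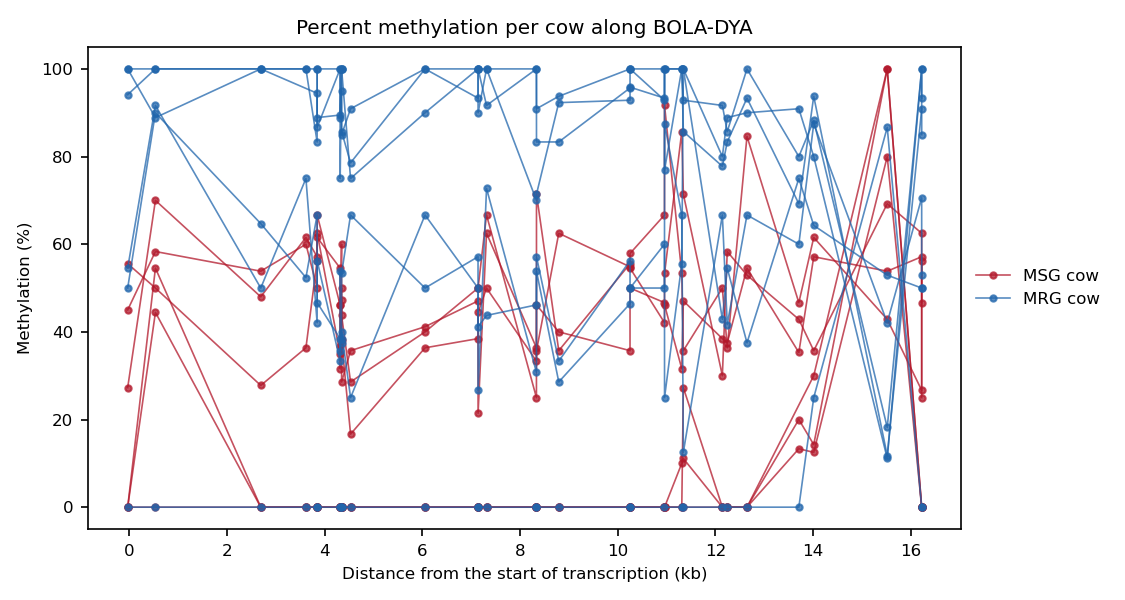
Percent methylation (vertical axis) of each cow at the 32 listed sites of BOLA-DYA by distance from the start of transcription in kb (horizontal axis), 1 line per cow, red for MSG and blue for MRG. Lines run at 3 levels, the lowest at 0 with 3 MSG cows hidden behind 1 MRG cow, and cross at the site 15.5 kb from the start.

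BOLA-DYB, the beta chain partner, lies at 7096520 to 7105588 on the minus strand. It had 2 sites, 7089303 and 7090311, both beyond the gene and both lower in MSG. The same 4 cows as in BOLA-DYA were at 0 at both sites. MSG cows averaged 24.7% ± 28.5 and MRG cows 61.9% ± 36.7 (SD, n = 6 each), a difference of -37.1 points (SE 17.1) with a limma p of 0.0481 and an adjusted p of 0.131. The exact permutation p was 0.0996.

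BOLA-DOB and BOLA-DOA encode the beta and alpha chains of DO, which tempers the activity of DM. BOLA-DOB (7114058 to 7122883, minus strand) had 6 of 7 sites lower in MSG. Averaged over its sites, MSG cows ran from 26.5% over a median of 41.0% to 48.8%, and MRG cows from 0% over 74.8% to 87.9%. All MRG cows except replicate 4 lay above every MSG cow. The means were 39.0% ± 8.09 and 62.9% ± 33.1 (SD, n = 6 each), a difference of -23.9 points (SE 12.9). Its limma adjusted p was 0.163. Without MRG replicate 4 the difference was -36.5 points, and with each CpG counted once it was -15.5 points. MRG replicate 4 had a value at only 5 of the 7 sites, so the cow means do not all cover the same sites. Over the sites with all 12 cows the difference was -33.0 points, and the median over sites gave -34.8 points.

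Within BOLA-DOB the intronic CpG at 7119731 and 7119732 and the promoter CpG at 7125314 and 7125315 were 29.6 to 40.8 points lower in MSG. The site at 7126568, 3.69 kb before the start, had the widest difference, 33.0% ± 19.5 (n = 6) against 75.2% ± 19.9 (n = 5), with an exact permutation p of 0.0130. MRG replicate 4 had no value there. On the opposite strand, at 7126569, that cow was at 0. The means there were 25.5% ± 13.5 against 63.9% ± 36.3 (SD, n = 6 each, exact permutation p = 0.0368). The site in the 3' untranslated region, 7114700, was the exception at 88.8% ± 17.7 (n = 6) against 62.5% ± 39.6 (n = 5). In it MRG replicate 5 alone was at 0.

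BOLA-DOA (7315559 to 7323441, minus strand) had 3 of 5 sites lower in MSG, and its gene means overlapped widely. MSG cows averaged 49.4% ± 11.3 and MRG cows 55.9% ± 18.1 (SD, n = 6 each), a difference of -6.59 points (SE 8.87) with a limma adjusted p of 0.538. The median over sites gave -28.2 points and each CpG counted once gave -1.07 points. The site in the 3' untranslated region, 7315567, stood at 25.1% ± 23.01 against 61.6% ± 42.2, and the promoter site 7325416, 1.98 kb before the start, at 74.2% ± 25.2 against 43.2% ± 41.3 (SD, n = 6 each).

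At 7312217, 11.2 kb downstream of the start of BOLA-DOA, the cows of the groups did not overlap. In MSG the values were 83.3%, 83.3%, 93.8%, 81.8%, 92.9% and 91.7% in the order of replicates. In MRG they were 53.8%, 55.0%, 33.3%, 68.8%, 66.7% and 69.2%. Every MSG cow was above every MRG cow and no cow was at 0. The difference was 30.0 points, with an exact permutation p of 0.00216, the smallest that 6 cows against 6 can give (0.121 adjusted over all listed sites), and a limma adjusted p of 0.0969.

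BOLA-DMB and BOLA-DMA encode the chains of DM, which frees newly made class II molecules of their placeholder peptide. BOLA-DMB (7246582 to 7253835, minus strand) had 13 of 14 sites lower in MSG. Averaged over the sites, MSG cows ran from 8.11% over a median of 36.0% to 47.1%, and MRG cows from 5.95% over 60.1% to 87.4%. All MRG cows but replicate 4 were above the highest MSG cow. The means were 29.8% ± 17.9 and 57.2% ± 29.3 (SD, n = 6 each), a difference of -27.4 points (SE 13.0) with a limma p of 0.0541 and an adjusted p of 0.136. The exact permutation p was 0.0693.

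The cows at 0 were only partly those of the DY genes. MSG replicates 3 and 4 and MRG replicate 4 were at exactly 0 at 11, 12 and 11 of the BOLA-DMB sites, where MSG replicate 3 had stood at the middle level along BOLA-DYA. MSG replicates 2 and 5, which were at 0 along BOLA-DYA, were at the middle level at 11 sites each of BOLA-DMB. Upstream of the gene, between 7256349 and 7260953, MRG replicates 2, 3 and 6 were the upper cows. Sites annotated to the promoter were 7256349 (28.8% against 57.7%) and 7256698 (37.5% against 72.5%, 5 MRG cows). The single site inside the gene, intronic 7248366, had 1.28% ± 3.14 for MSG against 25.7% ± 25.4 for MRG (SD, n = 6 each), and 7 cows were at 0 there.

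The widest difference of BOLA-DMB was at 7257634, with 27.2% ± 22.7 against 69.1% ± 39.8 (SD, n = 6 each) and an exact permutation p of 0.0476. The site higher in MSG, 7242644, had no cow at 0 and stood at 93.7% ± 8.20 against 65.1% ± 20.05 (SD, n = 6 each), with an exact permutation p of 0.00649 and a limma adjusted p of 0.104. Over the 2 sites of the gene with no cow at 0, which pointed opposite ways, the difference was -3.86 points. BOLA-DMA (7263678 to 7269167, minus strand) had 2 sites before its start, 7272716 and 7273529, and both had the same 3 cows at 0 as BOLA-DMB. Its means were 21.7% ± 17.9 and 52.1% ± 31.2 (SD, n = 6 each), a difference of -30.4 points (SE 13.5) with a limma adjusted p of 0.125.

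**Figure D3:**
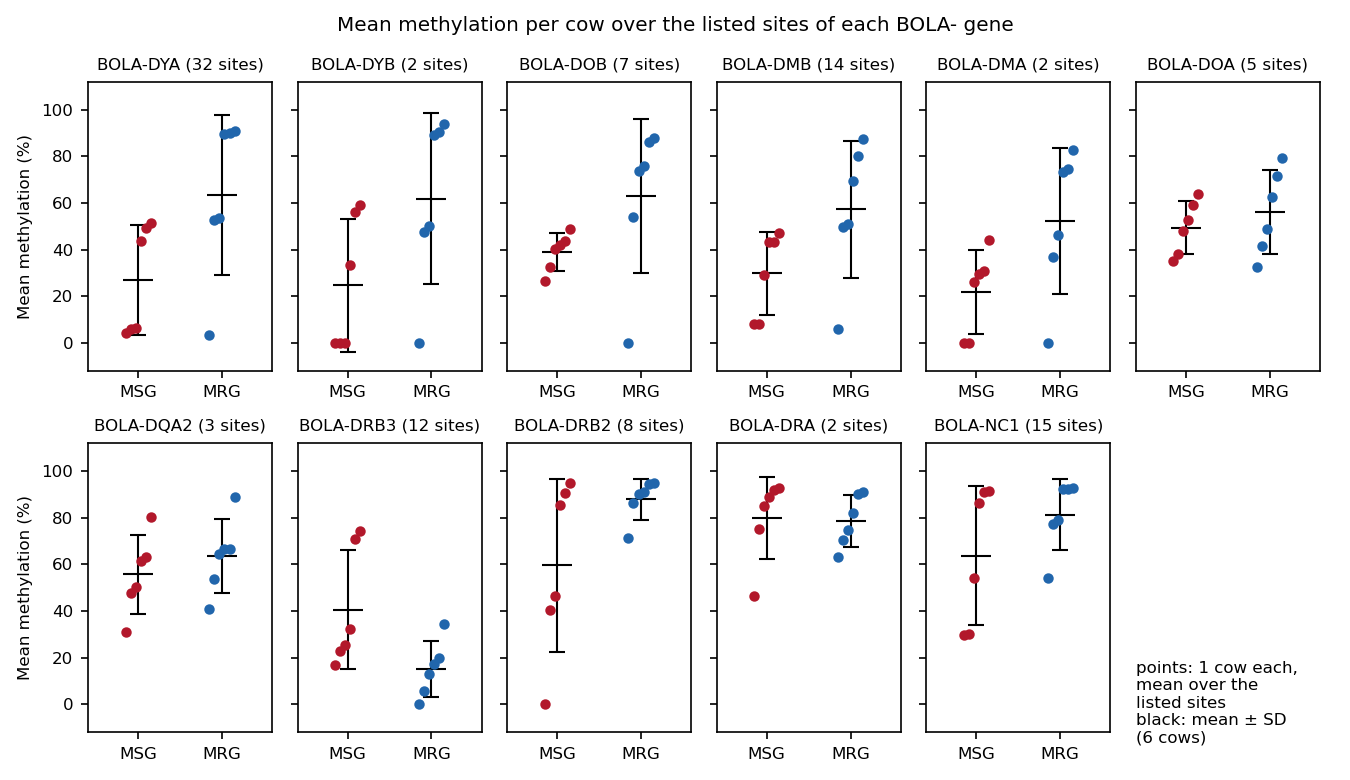
Mean methylation over the listed sites of each BOLA- gene (vertical axis, percent), 1 point per cow, with the mean and SD of 6 cows per group in black. MRG replicate 4 is the lowest point of the MRG group in the 6 class IIb genes, and BOLA-DRB3 has 2 MSG cows above 70%.

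The classical class II genes did not share a direction. BOLA-DRB3 encodes the main expressed DR beta chain, the most variable class II gene of cattle, and all of its 12 sites were higher in MSG. The gene lies at 25723715 to 25735337 on the plus strand. Averaged over the sites, MSG cows ran from 16.9% over a median of 29.0% to 74.4%, and MRG cows from 0% over 15.2% to 34.5%. MSG replicates 5 and 6, at 74.4% and 70.9%, stood above the rest, and the other MSG cows lay within the MRG range. The means were 40.6% ± 25.4 and 15.04% ± 12.04 (SD, n = 6 each), a difference of 25.5 points (SE 10.97) with a limma p of 0.0363 and an adjusted p of 0.122. The exact permutation p was 0.0433.

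From 25733312 to 25738635, a run of 8 BOLA-DRB3 sites, MSG replicates 5 and 6 stood at 45.5% or more, and every other value was 0 except 6.67% in MSG replicate 3 at the last site. At the intronic site 25733840 these cows stood at 78.6% and 66.7% and the other 10 cows at exactly 0. The neighbouring sites inside the gene were intronic 25733312, 25734198 and 25734219 and, in the 3' untranslated region, 25734547, where MSG averaged 19.0% to 20.9% and every MRG cow with a value was at 0. The same 10 cows were at 0 at 4 of the 8 sites, and the exact permutation p was 0.455 at each of these 4. The intronic site 25729589 stood outside this run, at 67.1% ± 19.9 against 39.4% ± 34.3 (SD, n = 6 each).

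The widest BOLA-DRB3 difference was 17.3 kb from the start, at 25740987, where 4 of 5 MSG cows stood at 100% and MSG replicate 5 at 82.4%. The 5 MRG cows with a value stood at 100%, 42.9%, 26.7%, 16.7% and 42.9%. The means were 96.5% ± 7.89 and 45.8% ± 32.3 (SD, n = 5 each), a difference of 50.7 points with an exact permutation p of 0.0476 and a limma adjusted p of 0.0804. It was the only site of the gene with no cow at 0.

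BOLA-DRB2, a further DR beta gene (25795675 to 25809471, plus strand), had all of its 8 sites lower in MSG. The gene means were 0%, 40.4%, 46.3%, 85.3%, 90.4% and 94.7% in MSG from the lowest cow to the highest, against 71.2% to 94.8% in MRG. MSG replicate 5 was at exactly 0 at all 8 sites, and MSG replicate 6 was between 25% and 75% at 7 of 8. These were also the cows that stood apart in BOLA-DRB3, and MSG replicate 4 was in the same band at 4 of 8 sites. The means were 59.5% ± 37.2 and 88.0% ± 8.78 (SD, n = 6 each), a difference of -28.4 points (SE 14.3) with a limma adjusted p of 0.148. Without MSG replicate 5 it was -16.5 points. DR beta genes are close relatives, and reads shared between copies could have been placed at either, so the values of BOLA-DRB3 and BOLA-DRB2 are uncertain in this respect.

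The promoter CpG of BOLA-DRB2 at 25797951, 2.28 kb inside the gene, was the other site without overlap. MSG cows stood at 86.7%, 77.8%, 81.8%, 81.2%, 0% and 40% in the order of replicates, and MRG cows at 100%, 100%, 88.9%, 92.3%, 100% and 90.9%. The nearest cows of the groups stood at 86.7% and 88.9%, while MSG replicates 5 and 6 stood far below. The difference was -34.1 points. Its exact permutation p was 0.00216, the smallest possible, and its limma adjusted p was 0.0902. On the opposite strand of that CpG, at 25797952, the groups overlapped (62.2% ± 41.0 against 89.7% ± 11.6, exact permutation p = 0.180, n = 6 each). The intronic CpG at 25804683 and 25804684 and the exonic site 25806396 were 22.7 to 33.5 points lower in MSG.

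BOLA-DRA encodes the DR alpha chain, which varies little between animals. It lies at 25837353 to 25843155 on the minus strand, and its 2 intronic sites pointed opposite ways. The site 25839787 stood at 70.0% ± 39.1 against 96.7% ± 8.16, with MSG replicate 5 at 0. The site 25839944, with no cow at 0, stood at 89.8% ± 11.5 against 60.4% ± 22.1 (SD, n = 6 each, exact permutation p = 0.00866, limma adjusted p = 0.101). The gene means were 79.9% ± 17.6 and 78.5% ± 11 (SD, n = 6 each), a difference of 1.38 points (SE 8.71).

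BOLA-DQA2 encodes a DQ alpha chain (25583083 to 25589209, minus strand). It had 3 sites, all 18.9 kb or more from its start, and 2 were lower in MSG. The means were 55.7% ± 16.7 and 63.6% ± 15.9 (SD, n = 6 each), a difference of -7.90 points (SE 9.42) with a limma adjusted p of 0.484. The median over its sites gave -24.2 points. At 25537745, its widest difference, 4 MSG cows were between 50% and 76.9% and the other MSG cows at 0. Of the MRG cows 5 were at 0 and MRG replicate 6 stood at 66.7%.

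BOLA-NC1 encodes a non-classical class I molecule (28549778 to 28553089, minus strand). Its 15 sites all lay before the gene, 11.2 to 56.3 kb from the start, and 12 were lower in MSG. Averaged over the sites, MSG cows ran from 29.6% over a median of 70.3% to 91.5%, and MRG cows from 54.0% over 85.7% to 92.7%. MSG replicates 5 and 6, at 30.0% and 29.6%, were lowest and were each at exactly 0 at 8 sites. The means were 63.8% ± 29.8 and 81.3% ± 15.1 (SD, n = 6 each), a difference of -17.5 points (SE 12.7) with a limma adjusted p of 0.261. The difference was -10.8 points without MSG replicate 5 and -10.7 points without MSG replicate 6, and the median over sites gave -32.3 points.

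The widest BOLA-NC1 difference was at 28591694, where 5 MSG cows ran from 0% to 100% (mean 44.4% ± 40.8) and 5 MRG cows from 64.3% to 100% (85.5% ± 13.98). The 3 sites higher in MSG, at 28577172, 28578666 and 28608060, had no cow at 0, and MRG replicate 4 or 6 was the lowest cow at each. Read with the DR genes, MSG replicates 5 and 6 stood apart in BOLA-DRB3 and BOLA-NC1. They were also the lowest cows in BOLA-DRB2, where MSG replicate 4 (46.3%) was close to MSG replicate 6 (40.4%). In the class IIb genes MRG replicate 4 was the lowest MRG cow in all 6.

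**Figure D4:**
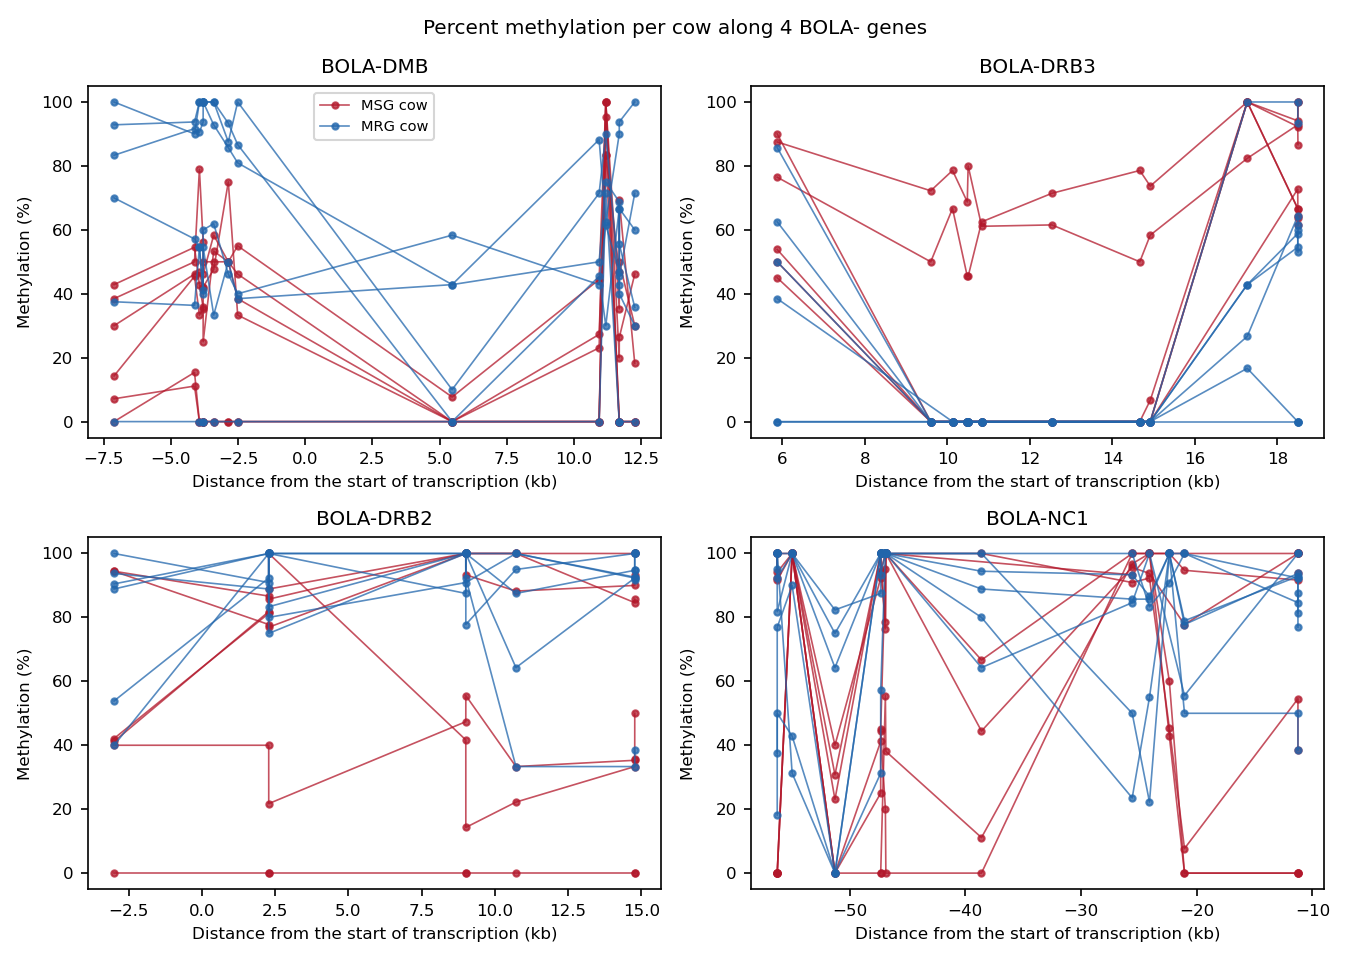
Percent methylation (vertical axes) of each cow at the listed sites of BOLA-DMB, BOLA-DRB3, BOLA-DRB2 and BOLA-NC1 by distance from the start of transcription in kb (horizontal axes), 1 line per cow, red for MSG and blue for MRG. In BOLA-DRB3 2 MSG cows stay above 40% where the other cows are at or near 0, and in BOLA-DRB2 1 MSG cow is at 0 throughout.

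Across the 11 genes the mean was lower in MSG in 9 and higher in 2. The share of all gene means lower in MSG is not given here. The 6 class IIb genes, all lower, are neighbours with partly the same cows at 0, so they are not separate results. The differences of BOLA-DOA, BOLA-DQA2 and BOLA-DRA were smaller than their SE. An unadjusted p under 0.05 was reached by 4 of the 11 gene means in limma's test (BOLA-DYA, BOLA-DYB, BOLA-DMA and BOLA-DRB3), beside 37.6% of all gene means. None of the 11 had an adjusted p under 0.05 (0.121 to 0.903), beside 0.00845% of all gene means. The exact permutation test gave an unadjusted p under 0.05 for 1 of them, BOLA-DRB3. The share of all gene means under that test is not given here, so this count cannot be set beside it.

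Values of exactly 0 were frequent in the MHC genes. At 89 of the 102 sites (87.3%) at least 1 cow was at 0, beside 78.3% of all listed sites, and 26.0% of all cow values were 0, beside 21.7%. Among the 13 sites with no cow at 0, 8 were higher and 5 lower in MSG, the opposite majority to the whole set. BOLA-NC1 held 5 of these 13, and the share higher among all listed sites with no cow at 0 is not given here. When only sites with no cow at 0 were fitted, 9 of these 13 had a limma adjusted p under 0.05, beside 73.1% of all such sites. Where the DNA sequence of a cow has T in place of C, the assay reports no methylation. The MHC is known for its many sequence variants, the tables hold no genotypes, and the part of sequence differences between cows in these levels was not tested.

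The 102 sites covered 82 CpGs, 20 of which were listed on both strands. Only these can be compared, and both of their strands had passed the authors' filter, so part of their agreement is built in. Over 234 pairs of values from the same cow and CpG, the median absolute difference between strands was 5.196 points and 9 in 10 pairs differed by at most 22.97 points. A cow was at 0 on both strands in 56 pairs and on a single strand in 0 pairs.

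Most of the sites lay outside the genes they were assigned to, as in the whole table. By the authors' annotation 67 of the 102 were distal intergenic (65.7%, beside 58.2% of all listed sites), 13 intronic (12.7%, beside 34.9%), 10 in promoters (9.80%, beside 5.44%), 9 in 3' untranslated regions (8.82%, beside 0.383%) and 3 exonic (2.94%, beside 0.943%). By position 29 sites lay inside the gene model (28.4%, beside 22.96% of all listed sites). No tile lay within 100 kb of a BOLA- site.

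Around each stretch the majority of other listed sites pointed the same way as its BOLA- sites. Within 100 kb of a BOLA- site, 45 further sites were listed under other symbols or none, 15 higher and 30 lower in MSG. Around class IIb 16 of 19 were lower, and 10 of these belonged to DSB, at 7039116 to 7051230, before BOLA-DYA. Around class I 9 of 11 were lower, among them all 4 sites of the class I gene JSP.1. Around class IIa 10 of 15 were higher. The majority of the BOLA- sites there was small, 14 of 25, and 12 of the 14 belonged to BOLA-DRB3. Over the whole of chromosome 23, 53.9% of 2749 sites were higher in MSG. A further symbol, BOLA without the hyphen, is not among the 11 genes and had 7 sites, 3 of them lower.

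Other genes of antigen presentation differed in both directions. Of 42 genes of the class I and class II pathways and related molecules, 20 had a listed site, 288 sites in all. In the class I pathway 17 of 38 sites were higher in MSG (44.7%, median difference -29.9 points), in the class II pathway 139 of 248 (56.0%, median 27.7 points), and 1 of 2 among related molecules. MARCHF1 alone held 160 of the 248 class II sites and 123 of the 139 higher ones, so that share rests mostly on this gene. Every listed site had a difference of at least 25 points by the authors' calculation, so a median can lie far from 0 although the directions are near even by count of sites. No site and no gene mean of these lists had a limma adjusted p under 0.05. At an unadjusted p under 0.05, 2 of the 20 gene means were higher and 6 lower in MSG in limma's test, together about the 37.6% of all gene means.

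Among list genes with 5 or more sites, the ubiquitin ligase genes MARCHF1 and MARCHF8, whose products take class II molecules off the surface, held most of the class II sites. MARCHF1 stood at 45.4% ± 10.6 for MSG against 25.1% ± 7.65 for MRG over 160 sites, all with a cow at 0. MARCHF8 stood at 36.4% ± 14.3 and 63.6% ± 12.5 over 65 sites (SD, n = 6 each). Their limma adjusted p were 0.0980 and 0.0936. They differed in opposite directions, and MARCHF8 had 35 sites inside the gene and MARCHF1 7.

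The lysosomal protease gene LGMN had all 9 sites lower in MSG (32.8% ± 22.4 against 63.9% ± 8.04), and CTSL, another lysosomal protease gene, stood at 71.5% ± 6.58 against 67.2% ± 15.1 over 8 sites (SD, n = 6 each). NLRC5, the activator of class I transcription, had all 9 sites lower (23.2% ± 39.5 against 58.9% ± 36.6). The chaperone gene CANX had all 8 higher (66.6% ± 34.9 against 35.3% ± 33.6), as had the peptide-trimming enzyme gene ERAP1 over 7 sites (75.6% ± 23.2 against 45.0% ± 11.5). The limma adjusted p of these genes ran from 0.0943 for LGMN to 0.639 for CTSL.

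Marker genes of the cells that carry class II molecules, and of other blood cells, were counted in the same way. Sites higher in MSG were 24 of 33 for B cell markers, 37 of 59 for monocyte and dendritic cell markers, 9 of 10 for the neutrophil markers (all of MPO) and 117 of 157 for T and NK cell markers. All of these shares were above 52.7%, the share over all listed sites, while that of the MHC genes, 21.6%, was below it. Members of a list went both ways: CD163 had 25 of 26 sites higher and CLEC4E 16 of 20 lower, both LYZ sites were lower, and all 12 CD4 sites and 3 of 5 CD8A sites were lower. Methylation of marker genes does not measure the number of cells, and the part of cell mix in the MHC values was not tested.

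Likeness of pattern was measured as the Pearson correlation of gene means over the 12 cows after each group's mean was removed, and is given as a description with no test. Among the BOLA- genes, the highest values were those of neighbouring class IIb genes. In class IIa neighbours were not always alike. BOLA-DRB2 had 0.837 with BOLA-DRA, but BOLA-DRB3 had -0.644 with BOLA-DRB2 and -0.690 with BOLA-DRA. The highest value of BOLA-DQA2 was 0.527, with BOLA-NC1. BOLA-DYA had 0.973 with BOLA-DYB and 0.863 with BOLA-DOB, both above any gene named below for it. BOLA-DMB had 0.978 with BOLA-DMA and 0.844 with BOLA-DOA. These neighbours have fewer than 10 sites, and the search over other genes took in only the 3620 with at least 10. In that search the 3 closest to BOLA-DYA were PDAP1 on chromosome 25 (0.846), TMEM212 on chromosome 1 (0.837) and ZDHHC2 on chromosome 27 (0.790). For BOLA-DMB the search gave LOC107131494 on chromosome 19 (0.861), followed by LOC112447177 on chromosome 6 (0.825) and MIR2883 on chromosome 18 (0.813). For BOLA-DRB3 they were LOC112443533 on chromosome 22 (0.928), NUDCD1 on chromosome 14 (0.915) and MIR2285BG on chromosome 8 (0.912). For BOLA-NC1 they were LRRC20 on chromosome 28 (0.882), OR2B7B at 30.8 Mb of chromosome 23 (0.878) and RTP1 on chromosome 1 (0.869). These values were picked as the highest of 3620 over 12 cows and say nothing of shared function.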

How the data were processed

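Per the labels' protocols, blood DNA of 12 cows was converted with enzymes, which leave 5-methylcytosine and 5-hydroxymethylcytosine as cytosine, and sequenced. The authors deposited percent methylation per cow for sites and for tiles, with their difference score in percentage points and their p-value and q-value, per the file headers. The build was ARS-UCD1.2, and the tools, whose roles are not stated, were ChIPseeker 1.32.1, DRAGEN, Bismark and fastp 0.23.1, per the submitters' processing notes; the differential test is not given in the sources used here. Listed sites had values for at least 5 cows per group. Another 36 columns of coverage and read counts in the tile table carry numbers, not cow names, and were not used, so depth is unknown here and the error given is that between cows; a logistic model, planned only for counts that column names tie to cows, was therefore not run.

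Sites, and gene means per cow over all sites of a symbol, were compared between the groups by limma 3.58.1 (R 4.3.3), two-sided, with Benjamini-Hochberg adjustment over all rows and a threshold of 0.05. An exact two-sided permutation test over the 924 regroupings of the cows was the alternative. The code was tested on simulated data. All BOLA- symbols were named. Their sites were named where the groups did not overlap, where they lay inside the gene or in its promoter, or where the difference was widest; those set beside them in the text were chosen after their values were seen. Members, lists and tests were chosen with earlier results of these data known. Replicate numbers follow the order of the records and pair no cows. No sequence is printed because no sequence file of the build was used.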

Additional observations from a re-analysis of the deposited data

Results flagged for a closer look

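In BOLA-DRB2, MRG replicate 5 stood apart from its group, with a mean of 71.2% over the listed sites where the next cow was at 86.3% and the highest at 94.8%. Its gap to the next cow was 0.641 of the range of the group, above the limit of 0.625 of Dixon's test for 6 samples. Of 26 groups of cows looked at in this way (the means of 11 genes and the 2 sites without overlap, in each group) it was the only one past the limit, and chance alone passes about 1 in 20.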

How the results depend on the processing

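When sites with any cow at 0 were left out, 61.5% of 13 sites were higher in MSG in place of 21.6% of 102, and 9 of the 13 passed limma's test in place of 0, beside 73.1% of all such sites. In that setting BOLA-DOA differed by 30.0 points (limma adjusted p = 0.0334) and BOLA-NC1 by 3.65 points, both opposite to their values over all sites, and BOLA-DRB3 by 50.7 and BOLA-DRA by 29.4 points with limma adjusted p of 0.0334 and 0.0370; BOLA-DOA, BOLA-DRB3 and BOLA-DRA rest on 1 site each there and BOLA-NC1 on 5, BOLA-DQA2, also on 1 site, moved from -7.90 to -26.3 points (limma adjusted p = 0.0565), BOLA-DYA to -0.369 and BOLA-DMB to -3.86, and BOLA-DYB, BOLA-DOB, BOLA-DMA and BOLA-DRB2 had no site left. The share of all gene means with an adjusted p under 0.05 in that setting is not given here. Since 73.1% of all its sites passed, these adjusted p do not mark the genes out. The cause was not tested. In the other settings (sites with all 12 cows, each CpG or each run once, medians, the exact permutation test) all gene differences kept their sign and side of the threshold. The share higher in MSG ran from 14.7% to 29.2%, and no site passed, on the logit scale included. The 14.7% came from medians over cows, with 15 sites higher, 79 lower and 8 tied. With a cow left out no gene passed, and the differences ran from -48.5 to -31.1 points for BOLA-DYA, -49.5 to -30.7 for BOLA-DYB, -36.5 to -19.0 for BOLA-DOB, -37.7 to -21.4 for BOLA-DMB, -40.8 to -24.3 for BOLA-DMA, -11.3 to -1.96 for BOLA-DOA, -12.8 to -2.83 for BOLA-DQA2, 18.7 to 30.2 for BOLA-DRB3, -35.5 to -16.5 for BOLA-DRB2, -1.66 to 8.08 for BOLA-DRA and -23.1 to -10.7 for BOLA-NC1; that of BOLA-DRA turned negative with MSG replicate 1 (-0.409), 2 (-0.964) or 3 (-1.15) left out, and with MRG replicate 4 (-1.66) or 5 (-0.207) left out. Alternatives for tiles gave no value, since no tile was listed for these genes. No paired analysis was possible because the replicate numbers only name the cows in the order of the records.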
